A study of Rattus norvegicus with 6 samples.

Results

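A set of 8 genes that serve as marks of modulated, macrophage-like smooth muscle was followed in RNA sequencing of smooth muscle cells from rat vessels, grown as primary cultures. They were Lgals3, Spp1, Gpnmb, Cd68, Cd14, Lcn2, Lgals1 and Lgals3bp, chosen by name, and each matched 1 of the 30945 gene rows. The labels give 2 groups of 3 libraries: cells given Negative_control and cells given siRNA_ANK, and the series title speaks of ANK deficiency. No strain, age, dose, siRNA sequence or time was given in the sources used here, and nothing in the labels tells whether the replicates are separate animals or cultures. The p-values therefore reflect the spread among these 6 libraries alone, which may be technical. Of the 8 genes, 6 had enough counts to be tested and 2, Cd68 and Lcn2, did not.

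In plaques and in cholesterol-loaded culture, smooth muscle cells can lose contractile proteins and take up genes otherwise known from macrophages. Lgals3 (galectin-3) is widely used as the mark of this state in mouse lineage tracing. The other genes cover secreted proteins (Spp1, Lgals1, Lgals3, Lgals3bp, Lcn2), a lysosome-linked membrane glycoprotein (Gpnmb), a lysosomal membrane protein of phagocytes (Cd68) and a receptor for bacterial lipopolysaccharide (Cd14). None of them is made by macrophages alone, and galectins and osteopontin are also made by smooth muscle and fibroblasts.

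Libraries held 15641259 to 17441548 counts. Ankh, the gene whose protein is also called ANK, was at 352 ± 14.7 CPM (counts per 1000000, scaled to library size with TMM factors) with Negative_control and at 93.7 ± 22.8 CPM with siRNA_ANK (SD, n = 3). Genes that define smooth muscle were well expressed: the sum over 12 contractile genes was 3273 to 4492 CPM with Negative_control and 6246 to 7428 CPM with siRNA_ANK. A pair of libraries, negative control replicate 2 (-26.7) and siRNA_ANK replicate 3 (25.4), stood nearest to the opposite group on the first principal component, which carried 70.6% of the variance. With both left out, the log2 fold changes were -1.67 for Lgals3, -1.11 for Spp1, -1.25 for Cd14, -0.60 for Gpnmb, -0.45 for Lgals1 and 0.64 for Lgals3bp. All 6 calls described next held. The 2 libraries were picked for standing nearest to the opposite group, and without them more genes were called (6056 against 5223). That the calls held is therefore not independent support.

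Most of these marks were lower in siRNA_ANK cells. Lgals3, Spp1, Cd14, Gpnmb and Lgals1 fell, in that order of size, by 3.13-fold, 2.31-fold, 2.09-fold, 1.48-fold and 1.41-fold, while Lgals3bp, which encodes a secreted partner of galectin-3, rose 1.49-fold. For all 6 genes the siRNA_ANK libraries lay wholly on one side of the control libraries. Over all 13016 genes tested, 20.2% were called lower and 19.9% higher (edgeR, adjusted p under 0.05), 2.58% were called lower by at least 2-fold, and groups that did not overlap were found for 25.4% in the lower and 25.7% in the higher direction. Beside these shares, 5 of the 6 tested genes were called lower, 3 of them by at least 2-fold, and 1 was called higher. The set was chosen with earlier results of these data known, so this comparison describes the set and is not a test. RNA came from bulk cultures, in which fewer cells that express a gene and less RNA per cell cannot be told apart.

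**Figure D1:**
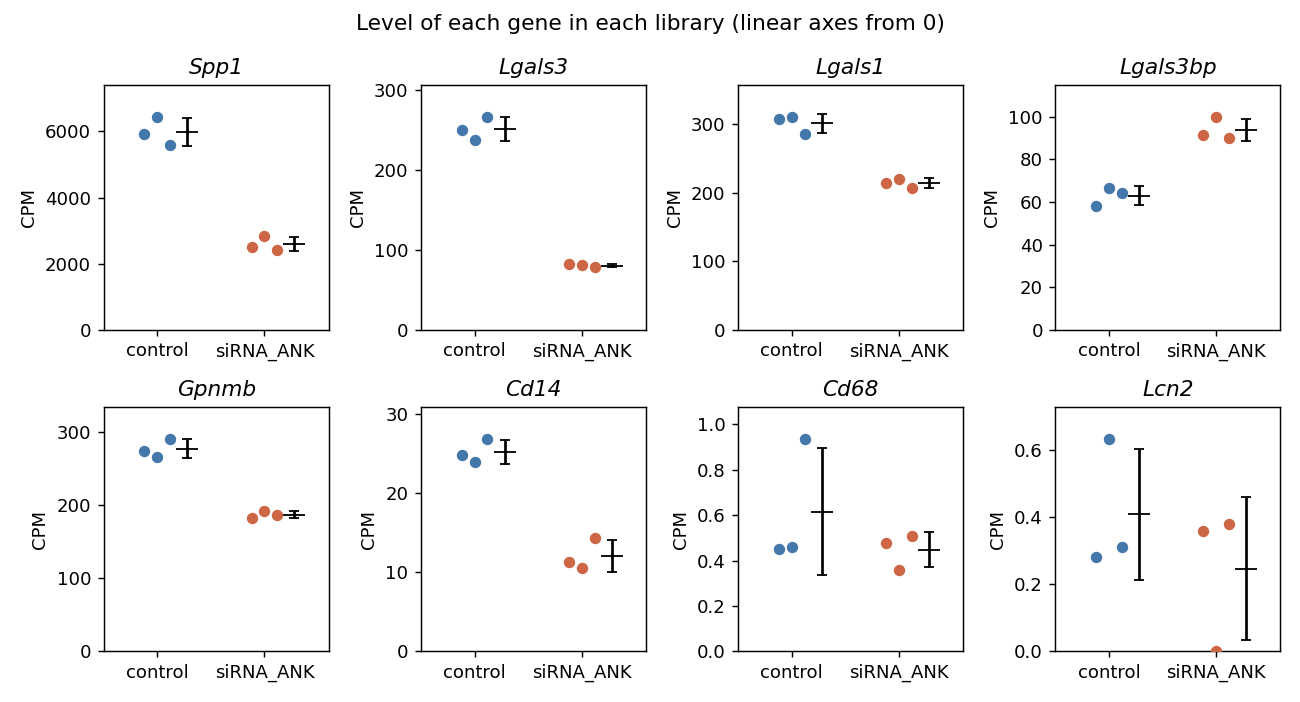
Level of each of the 8 genes in CPM on linear axes from 0, with 1 point per library (blue, negative control; orange, siRNA_ANK) and the mean with SD beside the points (n = 3). The siRNA_ANK points lie below all control points for Spp1, Lgals3, Lgals1, Gpnmb and Cd14 and above them for Lgals3bp, while the groups overlap for Cd68 and Lcn2.

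The stretches before the start sites of Spp1 and Gpnmb, which fell, and of Lgals3bp, which rose, are shown, and each holds matches to the motifs searched. They are the 250 bases before the start from RefSeq (build GRCr8), on the strand of the gene: Spp1 at chr14:5619805-5620054 (minus strand), Gpnmb at chr4:79340878-79341127 (plus strand) and Lgals3bp at chr10:104127849-104128098 (minus strand). Capitals mark matches to short motifs.
Spp1: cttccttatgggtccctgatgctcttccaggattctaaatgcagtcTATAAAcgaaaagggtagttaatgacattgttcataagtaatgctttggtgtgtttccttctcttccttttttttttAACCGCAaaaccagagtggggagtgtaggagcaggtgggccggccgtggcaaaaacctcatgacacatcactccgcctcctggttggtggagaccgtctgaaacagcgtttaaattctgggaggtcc
Gpnmb: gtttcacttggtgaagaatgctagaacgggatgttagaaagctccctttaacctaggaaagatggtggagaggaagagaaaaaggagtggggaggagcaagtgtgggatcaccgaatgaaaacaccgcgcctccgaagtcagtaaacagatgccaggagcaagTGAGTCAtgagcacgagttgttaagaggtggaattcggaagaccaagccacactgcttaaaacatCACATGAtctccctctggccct
Lgals3bp: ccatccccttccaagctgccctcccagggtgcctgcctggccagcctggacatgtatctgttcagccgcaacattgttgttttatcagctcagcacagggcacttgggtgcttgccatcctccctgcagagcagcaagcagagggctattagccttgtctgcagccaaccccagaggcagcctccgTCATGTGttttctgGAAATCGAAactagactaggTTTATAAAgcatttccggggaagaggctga

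The letters searched, on both strands, were TATAAA (the TATA box), TGAGTCA (the AP-1 site), TCATGTG (the core of the M-box read by MITF and its relatives), TGTGGTT and TGCGGTT (forms of the RUNX site), CCGCCC (the GC box) and GAAANNGAA (a core of interferon-stimulated response elements). Spp1 held TGCGGTT as its reverse complement AACCGCA, 127 bases before the start, and TATAAA 204 bases before it. Gpnmb held TGAGTCA, 87 bases before the start, and TCATGTG as CACATGA, 22 bases before it. Lgals3bp held TCATGTG 64 bases, GAAANNGAA 50 bases and TATAAA 28 bases before the start, and the TATAAA overlapped a second match on the other strand. Among 33469 windows of the same length, TGCGGTT was found in 1.2%, TGTGGTT in 4.59%, TGAGTCA in 4.05%, TCATGTG in 3.07%, TATAAA in 12.9%, GAAANNGAA in 8.12% and CCGCCC in 30.5%. The motifs were chosen after the promoter sequences were seen, so these shares cannot show that a match here is unusual. The windows of Cd14, which also fell, and of Lcn2 held none of these letters. The window of Cd68 held TGAGTCA 205 and 80 bases and CCGCCC 166 bases before the start. The windows of Cd14, Lcn2 and Cd68 are not shown. A match is a description of the sequence and not a binding site. The M-box letters were found in Gpnmb, which fell, and in Lgals3bp, which rose, and their part in either change was not tested.

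Galectin-3, a lectin that binds galactosides inside and outside the cell, showed the largest change of the set. Lgals3 (ENSRNOG00000010645, chromosome 15, 20607692 to 20632025, plus strand, mRatBN7.2) stood at 249.9, 237 and 267 CPM in negative control replicates 1, 2 and 3, against 81.9, 80.7 and 78.2 CPM in siRNA_ANK replicates 1, 2 and 3. The 3 siRNA_ANK values were close together, with a coefficient of variation of 2.35%, and each was less than the lowest control value. The means were 251 ± 14.7 and 80.3 ± 1.89 CPM (SD, n = 3), and the log2 fold change was -1.65, with an SE of 0.06 (edgeR adjusted p = 9.51e-11). Log2 fold changes below are given with their SE. Of the 13016 genes tested, Lgals3 had rank 110 counted from the lowest log2 fold change.

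Galectin-1, a related lectin abundant in mesenchymal cells, fell less. Lgals1 (ENSRNOG00000009884, chromosome 7, 110481392 to 110488345, plus strand) stood at 308, 311 and 285 CPM in the control libraries, against 215, 221 and 207 CPM with siRNA_ANK. The groups did not overlap, and the log2 fold change was -0.49 ± 0.06 (edgeR adjusted p = 8.37e-06). Per kilobase of gene length, the level of Lgals3 was 0.415, 0.391 and 0.479 of that of Lgals1 in the controls and 0.195, 0.187 and 0.194 of it in siRNA_ANK. The 2 groups of ratios did not overlap, and an exact permutation test gave p = 0.1 (two-sided), the smallest that 3 against 3 libraries allow. Both genes were chosen with earlier results of these data known. This p-value therefore restates the different sizes of their falls and is not a further test.

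The galectin-3 binding protein is a secreted scavenger-receptor glycoprotein that binds galectins and matrix proteins. Lgals3bp (ENSRNOG00000003217, chromosome 10, 103619908 to 103629256, minus strand) stood at 58.2, 66.6 and 64.0 CPM in the control libraries, against 91.2, 99.9 and 90.2 CPM with siRNA_ANK. It was the only gene of the 6 tested whose siRNA_ANK values all lay above the controls, with a log2 fold change of 0.58 ± 0.07 (edgeR adjusted p = 1.16e-05). The ratio of Lgals3bp to Lgals3 per kilobase was 0.188 ± 0.0193 in the controls and 0.876 ± 0.0478 in siRNA_ANK (SD, n = 3). Lgals3bp rose and Lgals3 fell, each without overlap, so the groups of this ratio had to separate. Its exact permutation p = 0.1 (two-sided, the smallest possible) therefore follows from those changes and is not a further test. The gene model overlaps that of Cant1 on the same strand, for which the means were 35.9 CPM with Negative_control and 33.8 CPM with siRNA_ANK. The other 7 gene models overlap none in the files.

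Osteopontin, a secreted phosphoprotein that binds integrins and CD44 and acts on mineral deposition, was the most abundant product of the set. Spp1 (ENSRNOG00000043451, chromosome 14, 5308885 to 5315162, minus strand) stood at 5917, 6443 and 5586 CPM in the control libraries, against 2508.5, 2838 and 2428 CPM with siRNA_ANK. It ranked 11 to 12 by CPM among all genes in the control libraries and 28 to 32 in the siRNA_ANK libraries. Its share of all counts was 0.572% to 0.651% with Negative_control and 0.239% to 0.278% with siRNA_ANK. The log2 fold change was -1.21 ± 0.07 (edgeR adjusted p = 1.23e-08).

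Gpnmb encodes a transmembrane glycoprotein of macrophages, osteoblasts and pigment cells that is known as a target of MITF. Gpnmb (ENSRNOG00000008816, chromosome 4, 78010197 to 78049367, plus strand) stood at 274, 266 and 291 CPM in the control libraries, against 182, 192 and 187 CPM with siRNA_ANK. The lowest control was above the highest siRNA_ANK value, and the log2 fold change was -0.57 ± 0.06 (edgeR adjusted p = 1.85e-06). On the per-kilobase scale the ratio of Lgals3 to Gpnmb was 1.52 ± 0.0218 in the control libraries and 0.722 ± 0.0279 with siRNA_ANK (SD, n = 3). An exact permutation test gave p = 0.1 (two-sided), the smallest possible. As for the ratio of Lgals3 to Lgals1, this p-value restates falls of different size in chosen genes and is not a further test.

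CD14 is the co-receptor that hands lipopolysaccharide to toll-like receptor 4. Cd14 (ENSRNOG00000017819, chromosome 18, 28335340 to 28337261, minus strand) stood at 24.8, 23.9 and 26.9 CPM in the control libraries, against 11.3, 10.5 and 14.4 CPM with siRNA_ANK. The value of siRNA_ANK replicate 3 was the nearest to the controls, and the siRNA_ANK coefficient of variation of 17.1% was the largest of the 6 tested genes in either group. The log2 fold change was -1.06 ± 0.11 (edgeR adjusted p = 5.03e-06).

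**Figure D2:**
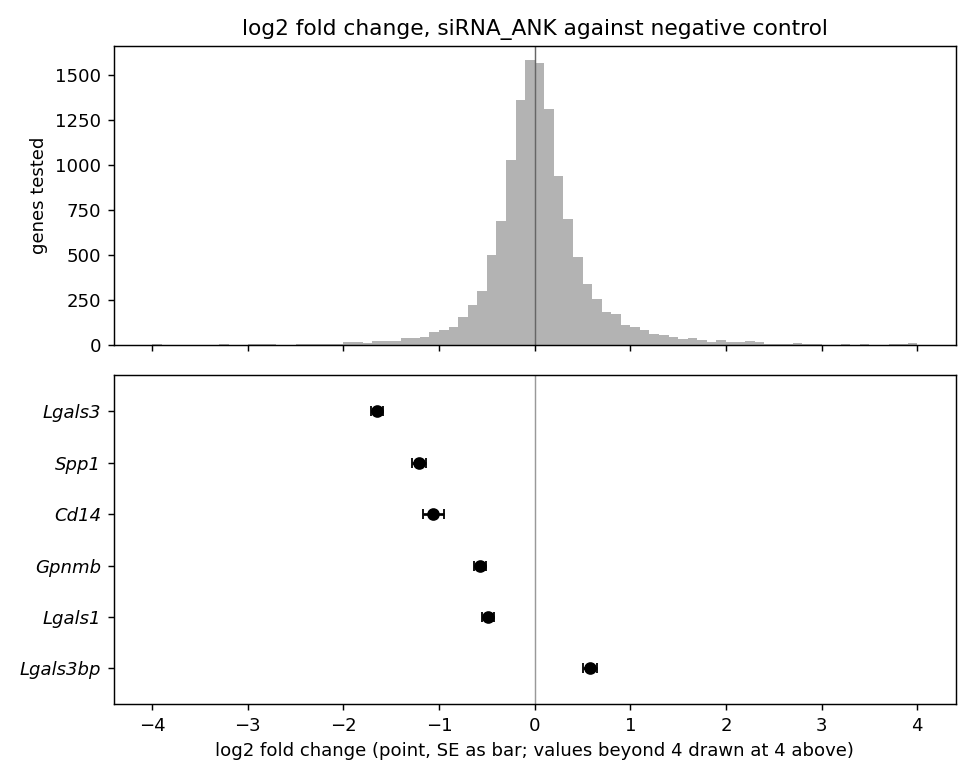
Upper panel, number of genes tested per log2 fold change (siRNA_ANK against negative control, bins of 0.1, 13016 genes); lower panel, the 6 tested genes with the SE as a bar. Lgals3 lies at -1.65, Spp1 at -1.21 and Cd14 at -1.06, Gpnmb at -0.57 and Lgals1 at -0.49, and Lgals3bp lies at 0.58, beside a median of 0.01 over all genes.

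Cd68 and Lcn2 were at the edge of detection. Cd68 (ENSRNOG00000037563, chromosome 10, 54381815 to 54383697, minus strand), the macrosialin gene of phagocytes, had 8, 8 and 15 counts with Negative_control, against 8, 6 and 8 with siRNA_ANK, which is 0.359 to 0.937 CPM. Lcn2 (ENSRNOG00000013973, chromosome 3, 15680687 to 15684095, minus strand), which encodes the iron-siderophore carrier lipocalin 2, had 5, 11 and 5 counts with Negative_control, against 6, 0 and 6 with siRNA_ANK. The values of the groups overlapped for both genes. The ratio of siRNA_ANK to control was 0.738 for Cd68 (95% interval 0.407 to 1.32, exact, from 22 against 31 counts) and 0.594 for Lcn2 (0.267 to 1.27, from 12 against 21 counts). These intervals cover counting error only, and a difference was not detectable at this depth. The 0 counts of siRNA_ANK replicate 2 allow up to 3 counts, or 0.180 CPM.

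Per kilobase, the order of the mean levels in the controls was Spp1 (3822), Lgals1 (352), Lgals3 (150.4), Gpnmb (98.7), Lgals3bp (28.2), Cd14 (13.7), Cd68 (0.479) and Lcn2 (0.361 CPM per kilobase). In siRNA_ANK it was Spp1 (1656), Lgals1 (250.1), Gpnmb (66.6), Lgals3 (48.0), Lgals3bp (42.1), Cd14 (6.58), Cd68 (0.349) and Lcn2 (0.218 CPM per kilobase). Lgals3 thus stood above Gpnmb in the controls and below it in siRNA_ANK, in each of the 3 libraries of both groups. Cd68 and Lcn2, neighbours at the bottom, overlapped in both groups.

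**Figure D3:**
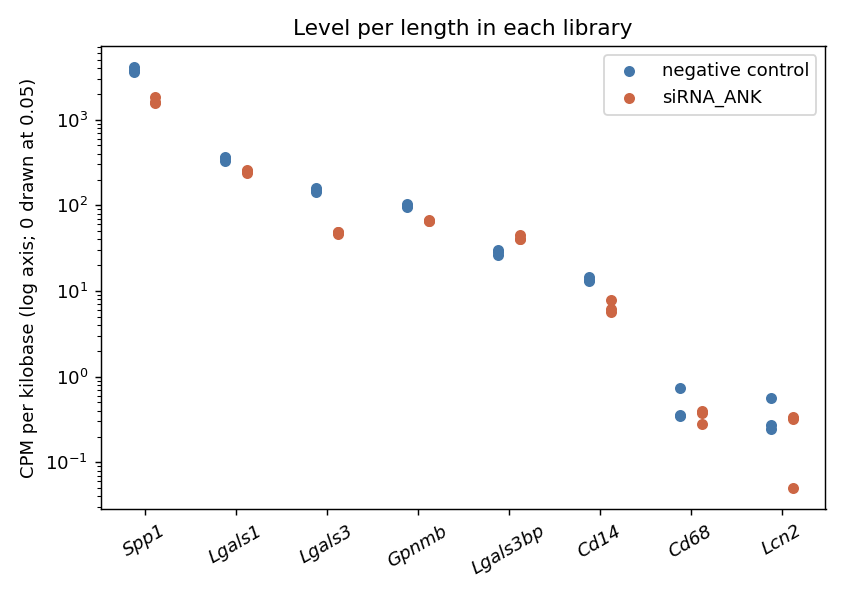
CPM per kilobase of gene length for the 8 genes, on a log axis, with 1 point per library (blue, negative control; orange, siRNA_ANK; a value of 0 is drawn at 0.05). Levels run from 3822 for Spp1 to 0.361 for Lcn2 in the control means, and Lgals3 lies above Gpnmb only in the controls.

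Genes that define macrophages and other leukocytes were at or near 0, as was Cd68, the member of the set most used to stain macrophages. Of 22 such markers, 21 were in the files, and 9 of them had 0 counts in all 6 libraries: Ptprc (CD45), Itgam (CD11b), Adgre1 (F4/80), Cd163, Tyrobp, C1qa, C1qb, C1qc and Cd53. In all, 19 stayed under 1 CPM in every library. The summed level of the list was 9.27 to 10.8 CPM with Negative_control and 4.56 to 5.64 CPM with siRNA_ANK, beside 23.9 to 26.9 CPM with Negative_control for Cd14 alone. Their part in the fall of Cd14 and Lgals3 was not tested. The 2 that were tested were Cd74, the invariant chain of MHC class II, at 2.77 ± 0.623 and 2.27 ± 0.183 CPM (edgeR adjusted p = 0.372), and Itgax, the integrin CD11c. Itgax fell 7.15-fold, from 6.13, 5.36 and 6.62 CPM to 1.38, 0.839 and 0.317 CPM (log2 fold change -2.81 ± 0.31, edgeR adjusted p = 6.77e-06).

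**Figure D4:**
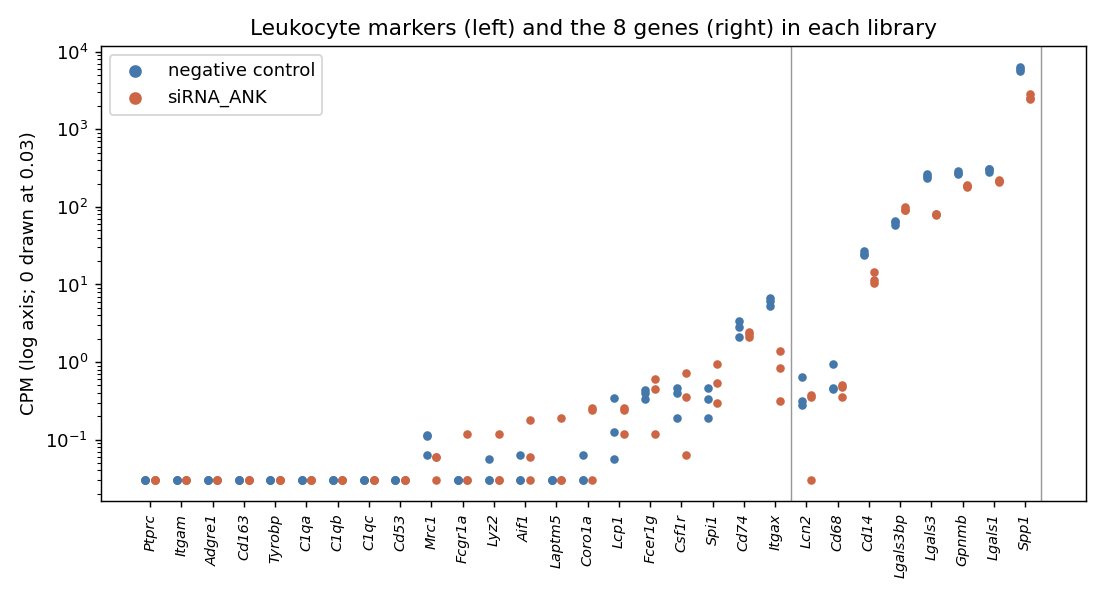
CPM per library, on a log axis, of 21 macrophage and leukocyte markers (left of the line) and of the 8 genes (right of it); blue, negative control; orange, siRNA_ANK; a value of 0 is drawn at 0.03. The 9 leftmost markers are at 0 in each library, and Itgax and Cd74 alone exceed 1 CPM on the left, while 6 of the 8 genes exceed 10 CPM.

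Genes around the 8 marks moved in different directions. For the lists below, the shares over all genes tested were 20.2% called lower and 19.9% called higher. In the galectin family, of 10 genes 5 were tested, and besides Lgals3 and Lgals1 only Lgals9 was called. Lgals9 was higher, at 7, 14 and 14 counts against 29, 31 and 35 (1.49 ± 0.34 on the log2 scale, edgeR adjusted p = 0.00279). Among 8 tested osteopontin receptors, 3 rose and 2 fell. Cd44, the hyaluronan receptor that also binds osteopontin, fell from 285 ± 4.91 to 197 ± 15.1 CPM, and Itga5, the fibronectin receptor chain, fell 1.44-fold, while Itgb5 rose 1.34-fold and Itga4 rose from 0.737 ± 0.153 to 2.30 ± 0.0903 CPM.

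In the list of CD14 and toll-like receptor signalling, 2 of 13 tested genes rose and 2 fell. Both are smaller shares than the 19.9% called higher and 20.2% called lower over all genes tested. Tlr4, the receptor that CD14 serves, fell from 21.1 ± 1.56 to 15.8 ± 2.83 CPM (edgeR adjusted p = 0.0143), which did not pass when negative control replicate 3 was left out (adjusted p = 0.0692) or siRNA_ANK replicate 2 (adjusted p = 0.0589). Tlr2 was 8.55 ± 0.120 and 6.68 ± 0.481 CPM (edgeR adjusted p = 0.0431), and this call held under only 6 of 15 alternatives (adjusted p = 0.0292 to 0.127). The kinase gene Irak2 rose 1.83-fold and Cd180 rose 1.57-fold, the latter with a gene model that overlaps Mast4 on the other strand. Around lipocalin 2, whose own level was too low to test, 4 of 6 tested genes rose and none fell: Cebpd, Nfkbiz and Cebpb, factors known to act on its promoter, rose 2.28-fold, 1.87-fold and 1.48-fold, and the receptor gene Lrp2 rose 1.59-fold with a call that 4 of the 6 single-library omissions ended (adjusted p = 0.0545 to 0.110).

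Of 17 tested MiT/TFE factors and lysosome genes, 8 fell and 4 rose, with a median log2 fold change of -0.17. Mitf, which encodes a factor that reads M-boxes, was 8.66 ± 0.509 and 7.91 ± 0.163 CPM (edgeR adjusted p = 0.446), and Tfeb was higher at 15.7 ± 1.64 against 10.5 ± 1.28 CPM (adjusted p = 0.00176). The protease genes Ctsb and Ctsk fell 1.64-fold and 1.57-fold. Among 13 tested genes of lipid uptake and efflux, which macrophage-like smooth muscle uses in cholesterol loading, 8 fell and 1 rose, with a median of -0.30. The cholesterol exporter gene Abca1 fell from 53.6 ± 9.33 to 18.6 ± 0.407 CPM (log2 fold change -1.52 ± 0.11, edgeR adjusted p = 3.47e-07), the lipid droplet gene Plin2 fell 1.59-fold and the scavenger receptor gene Olr1 1.49-fold, and Vldlr rose 1.38-fold.

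Markers of other smooth muscle states also changed, most of them upward, and their part in the result was not tested. Of 12 contractile markers 11 were called higher and none lower, with a median log2 fold change of 0.79. Of 17 tested synthetic and fibroblast-like markers, 11 were higher and 3 lower, with a median of 0.52, and Tnfrsf11b, which encodes osteoprotegerin, rose 2.42-fold. Adventitial fibroblast markers were higher for 6 of 8 and lower for 1, with a summed level of 273 to 298 CPM with Negative_control and 305 to 334 CPM with siRNA_ANK. Of the endothelial markers Cdh5, Kdr, Tie1 and Emcn had 0 counts, while Erg rose 3.72-fold.

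The genes with the profile most like each mark were found among 8602 genes with a symbol and a mean of at least 10 CPM, as the smallest root mean square distance between log2 CPM values over the 6 libraries, each gene centred on its own mean. For Lgals3 they were the water channel gene Aqp1 (distance 0.0644) and the phosphate transporter gene Slc20a1 (0.0835). For Spp1 they were Scd, a fatty acid desaturase gene (0.0804), and Plat, the gene of tissue plasminogen activator (0.0933). Cd14 was nearest to the lactate transporter gene Slc16a1 (0.0454) and Nans (0.0466), Gpnmb to Jade1 (0.0278) and Nr1d2 (0.0292), Lgals1 to Rnf5 (0.0263) and Itga5 (0.0332), and Lgals3bp to Rad21 (0.0203) and Rab3b (0.0305). None of the 6 tested marks was among the 2 nearest genes of another, and Cd68 and Lcn2 were too low to enter the search. With only 2 places per mark among 8602 genes, this does not show whether the marks moved together. Each distance covers 6 libraries in 2 groups, so genes with a like fold change come out near. For Lgals3, Aqp1 and Slc20a1 the log2 fold changes were -1.65, -1.58 and -1.64.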

How the data were processed

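The authors deposited 1 file of whole-number counts per gene for each of 6 libraries, not normalized, with gene lengths. The submitters' processing notes list featureCounts 1.5.0-p3, DESeq2 and the build mRatBN7.2. The aligner, strand setting and read filters are not given in these sources, so reads of overlapping genes cannot be told apart. Rows of predicted genes with no Ensembl identifier held 0.306% to 0.339% of the counts and were kept in library totals.

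Groups were taken from the sample titles. Genes passing filterByExpr (minimum count 10, minimum total 15) were scaled with TMM and compared over all genes with edgeR 4.0.16 in R 4.3.3 (robust quasi-likelihood test, two-sided, no covariate, Benjamini-Hochberg adjustment over 13016 genes). SE is the size of the log2 fold change over the square root of F. Levels per kilobase use the deposited gene lengths. The steps were tested on simulated data, where the share of false calls ran above the nominal rate. Same-group libraries differed by 2.83 to 12.3 in chi-square per degree of freedom, more than sampling noise.

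Alternatives were DESeq2 1.42.0, limma-voom (limma 3.58.1), other scalings and filters, a replicate block and omitted libraries. The 8 genes and all lists were chosen with earlier results of these data known, and the motifs after the promoter sequences were seen. Genes outside the 8 were named by rule (per list, at most 4 called genes in order of adjusted p, or else the 2 with the highest CPM; per mark, the 2 nearest profiles). Mitf, Tfeb and Cd74 were chosen after their values were seen. Promoters came from a RefSeq table of build GRCr8, which matched 6 of the 8 genes (not Lgals1 and Lgals3).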

Additional observations from a re-analysis of the deposited data

How the results depend on the processing

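The 5 lower calls and the 1 higher call among the 6 tested marks held under all 15 alternatives run. Over them the log2 fold change ranged from -1.69 to -1.60 for Lgals3, -1.28 to -1.11 for Spp1, -1.25 to -0.98 for Cd14, -0.60 to -0.53 for Gpnmb, -0.53 to -0.45 for Lgals1 and 0.52 to 0.64 for Lgals3bp. The number of genes called over the whole table was 5223, between 4053 (without negative control replicate 1) and 6056 (negative control replicate 2 and siRNA_ANK replicate 3 both left out). With no filter beyond 1 count, Cd68 and Lcn2 were fitted at -0.44 and -0.73 (edgeR adjusted p = 0.592 and 0.513). By CPM in place of CPM per kilobase, Gpnmb stood above Lgals3 in both groups and Lgals3bp above Lgals3 in siRNA_ANK, so the order of these genes rests on the length scale. Samples shared only a replicate number: deviations of same-numbered libraries correlated at -0.0266, 0.0593 and 0.0437. Negative control replicate 1 correlated best with siRNA_ANK replicate 3 (0.0467), while negative control replicates 2 and 3 correlated best with the siRNA_ANK library of their own number. With the replicate block 5210 genes were called, with the same 5 lower and 1 higher marks. At 15641259 or more counts per library, 1 count is worth less than 0.1 CPM. Too few counts left Cd68, Lcn2, 19 of the 21 leukocyte markers and other listed genes (among them 5 of the 10 galectins) untested, and Lgals9 was called from 7 to 35 counts per library.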
